A study of Homo sapiens with 6 samples.

Results

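The genes described here encode widely expressed RNA-binding proteins that control alternative splicing, and kinases that act on them. There are 43 of them among 27408 genes in the data, chosen by gene symbol: 14 SR proteins, 16 hnRNPs, 7 proteins that recognise splice sites or act beside them, and 6 splicing kinases. They were measured by RNA sequencing in PANC-1 and MIA-PaCa2 cells, both established human pancreatic cancer lines. Each line carried an ESRP1 overexpression construct, an ESRP2 overexpression construct or the LPCX control, with no further treatment. Both ESRP proteins regulate splicing in epithelial cells, and the study asked what they do in such cells. All 6 cultures grew in DMEM with 10% serum, and each combination of line and construct gave 1 library, without a replicate. Whether a construct was studied in a pool of cells or in 1 clone is not given in the sources used here.

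SR proteins carry a domain rich in arginine and serine, bind exon sequences and, in most known cases, help the spliceosome to recognise the exon. The hnRNPs coat the nascent RNA and often act in the opposite sense. SRPK and CLK kinases phosphorylate the SR proteins, which governs their entry into the nucleus and their release from nuclear speckles. Many of these genes also control their own amount: they can splice in a poison exon that carries a stop codon, and the resulting transcript is a target of nonsense-mediated decay, which destroys messages with a premature stop.

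Some of the differences described below fall in single alternative segments of these genes, which are shown here because the results refer back to them. Sequences and positions are from the transcripts and annotation of GENCODE release 29 (GRCh38), and run 5′ to 3′ on the strand of the gene. The poison exon of SRSF6 lies at chr20:43459153-43459420 on the plus strand and is 268 bases long. It is printed up to its stop codon, which is in capitals, as is the start of the 456-base poison exon of SRSF3 at chr6:36599821-36600276 on the plus strand.
SRSF6 poison exon: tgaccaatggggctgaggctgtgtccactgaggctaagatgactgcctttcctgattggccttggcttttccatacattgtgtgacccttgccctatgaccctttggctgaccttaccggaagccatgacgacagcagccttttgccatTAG
SRSF3 poison exon: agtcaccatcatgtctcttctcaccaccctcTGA

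U2AF1 has 2 mutually exclusive coding exons of 67 bases on the minus strand, exon a at chr21:43100453-43100519 and exon b at chr21:43101366-43101432. They have 44 bases in common, and the 23 positions where they differ are in capitals.
U2AF1 exon a: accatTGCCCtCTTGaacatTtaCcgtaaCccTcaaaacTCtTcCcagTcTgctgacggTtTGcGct
U2AF1 exon b: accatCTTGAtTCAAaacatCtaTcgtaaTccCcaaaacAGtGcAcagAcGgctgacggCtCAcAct

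The other segments are coding and are all on the minus strand. HNRNPD has a cassette exon of 147 bases at chr4:82356537-82356683, HNRNPA2B1 one of 36 bases at chr7:26197831-26197866 that separates the B1 from the A2 protein, and CLK1 one of 91 bases at chr2:200860125-200860215. In HNRNPU the use of a downstream splice donor adds 57 bases at chr1:244863617-244863673. No base is singled out in these 4, so none is in capitals.
HNRNPD cassette exon: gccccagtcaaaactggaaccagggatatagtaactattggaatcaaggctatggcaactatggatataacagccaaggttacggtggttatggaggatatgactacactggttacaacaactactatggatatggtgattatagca
HNRNPA2B1 cassette exon: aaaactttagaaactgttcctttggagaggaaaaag
HNRNPU exon extension: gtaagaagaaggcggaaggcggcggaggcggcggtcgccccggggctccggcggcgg
CLK1 cassette exon: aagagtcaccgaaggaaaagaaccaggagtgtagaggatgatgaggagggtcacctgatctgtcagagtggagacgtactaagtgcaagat

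The constructs and the lines were checked first. ESRP1 reached 491 TPM in PANC-1 and 367 TPM in MIA-PaCa2 libraries labelled ESRP1, and lay between 0.0781 and 0.261 TPM in the other 4. ESRP2 reached 308 TPM in PANC-1 and 197 TPM in MIA-PaCa2 libraries labelled ESRP2. Without the ESRP2 construct it stood at 37.7 TPM in PANC-1 ESRP1 and 34.8 TPM in PANC-1 LPCX cells, against 0.106 TPM and 0.0704 TPM in MIA-PaCa2 cells, so the PANC-1 control has ESRP2 of its own. TPM (transcript abundances) are scaled for transcript length and library size and keep no count of reads, so the depth behind a value is unknown. Of 6 markers of ductal or epithelial carcinoma cells, KRT8, KRT18 and KRT19 were high in every library (234 to 2223 TPM). KRT7, also on the list, was at most 2.00 TPM in any library. EPCAM was listed at 0 in the 3 MIA-PaCa2 libraries, where CDH1 was also at most 0.173 TPM. In the PANC-1 libraries EPCAM lay between 24.3 and 28.2 TPM and CDH1 between 3.89 and 8.59 TPM. Summed leukocyte markers reached at most 1.58 TPM, endothelial ones 3.20 TPM, and acinar and islet ones 0.302 TPM. The fibroblast markers summed to between 66.4 and 108 TPM in PANC-1 cells, almost all of it COL1A1, and to between 123 and 132 TPM in MIA-PaCa2 cells, almost all of it COL1A2, with DCN and LUM at or near 0. The part of these collagen levels in the differences between the lines was not tested.

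All but 1 of the 43 genes were well expressed. SRSF12, an SR protein, lay between 0.181 and 0.354 TPM in the 6 libraries and is left out of the tests, which cover 42 genes. Together the 43 genes made up 9312 TPM with ESRP1, 8883 TPM with ESRP2 and 8434 TPM with LPCX in PANC-1 cells, against 11116, 11406 and 10943 TPM with the same constructs in MIA-PaCa2 cells. That is 0.843% to 1.14% of all TPM, and each PANC-1 library was below each MIA-PaCa2 library. HNRNPA1, which binds exonic and intronic silencers, was the most abundant in every library, and SRSF2, which binds exonic enhancers, was the most abundant SR protein.

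**Figure D1:**
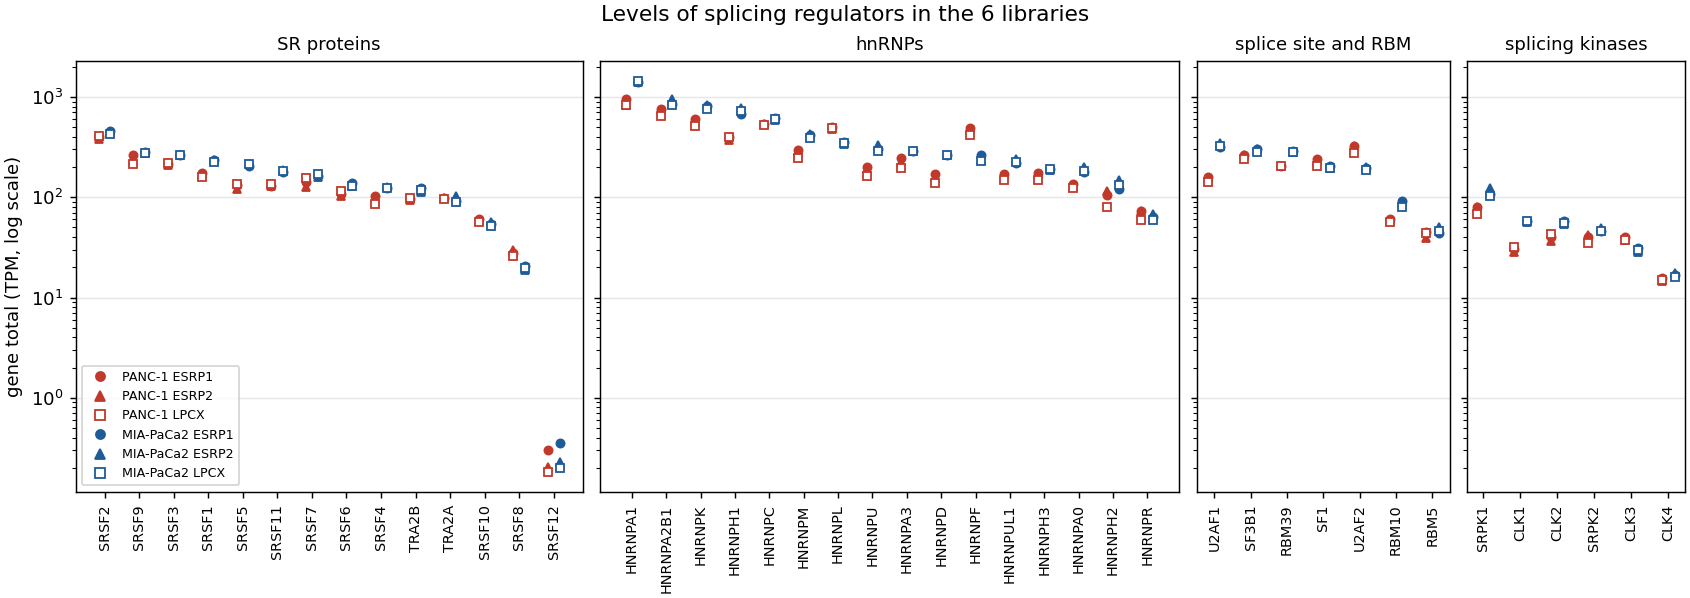
Gene totals in TPM (log axis) of the 43 genes in the 6 libraries, by group of genes, with 1 point per library. Red points are PANC-1 and blue points MIA-PaCa2 libraries, and SRSF12 lies below 1 TPM while HNRNPA1 leads the hnRNPs.

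The genes were first compared between the 2 cell lines. Most of the 42 genes were lower in PANC-1 than in MIA-PaCa2 cells. In limma, fitted to log2 of TPM plus 1 over 11829 genes with construct as a term, 5 genes were higher in PANC-1 cells (CLK3, HNRNPF, HNRNPL, SRSF8 and U2AF2) and 30 were lower, at a Benjamini-Hochberg adjusted p under 0.05. Over all 11829 genes 43.1% were called higher and 35.6% lower, and 78.8% in either direction. The median log2 difference, PANC-1 minus MIA-PaCa2, was -0.30 over the 42 genes and 0.08 over all genes. All 3 PANC-1 libraries lay above all 3 MIA-PaCa2 libraries in 6 of the 42 genes and below them in 32, against 43.1% and 36.3% of all genes. In these bulk samples a lower level could come from fewer cells with the transcript or from less of it per cell, which cannot be told apart. Nothing says that the 3 libraries of a line came from separate cultures, and they differ in construct, so the p-values compare these libraries only. A value with ± is a mean with its SD over the 3 libraries of a line.

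**Figure D2:**
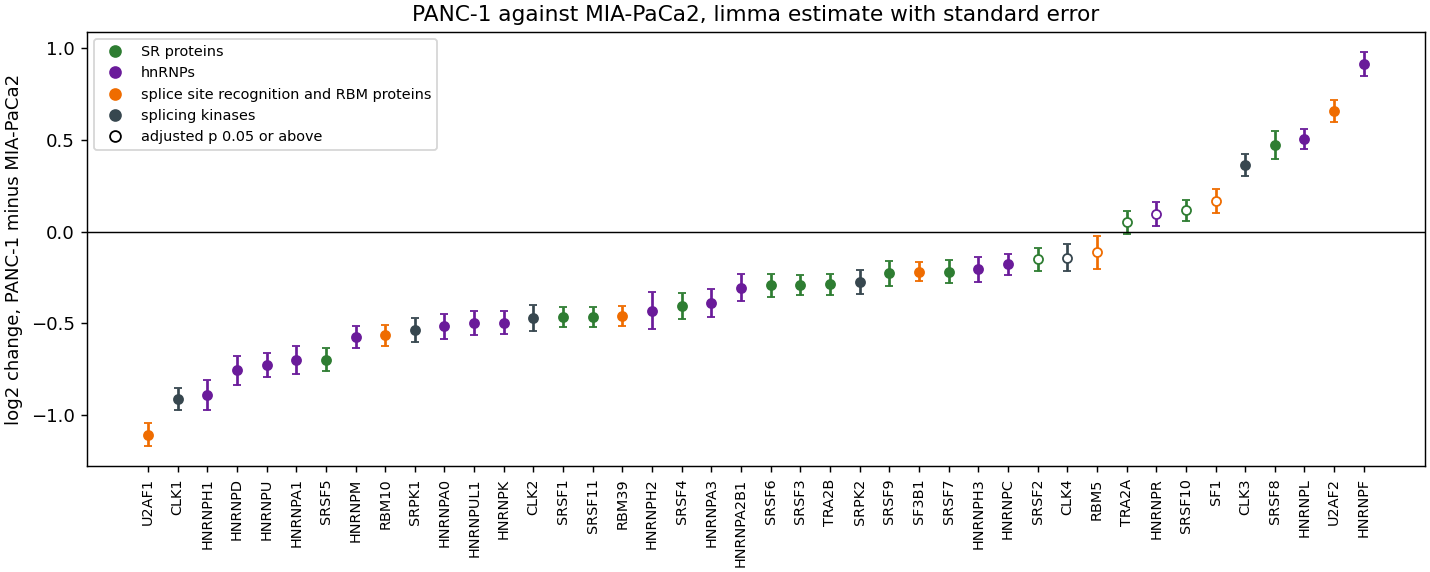
Log2 difference in level, PANC-1 minus MIA-PaCa2, with its standard error from limma for 42 genes, ordered by size and coloured by group of genes. U2AF1 is lowest at -1.11 and HNRNPF highest at 0.91, and open points mark the 7 genes with an adjusted p of 0.05 or above.

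Among the SR proteins 9 of 13 were lower in PANC-1 cells and only SRSF8 was higher. The median difference over the 13 was -0.29. SRSF5, an SR protein that promotes exon inclusion, stood at 132 TPM with ESRP1, 122 TPM with ESRP2 and 135 TPM with LPCX in PANC-1 cells, against 205, 215 and 213 TPM with the same constructs in MIA-PaCa2 cells. The libraries of the lines did not overlap, and the log2 difference in limma was -0.70 (SE 0.0625, adjusted p = 0.000187). SRSF1, the founding member of the family, averaged 166 ± 6.94 TPM in PANC-1 and 230.3 ± 6.87 TPM in MIA-PaCa2 cells (SD, n = 3 each), a log2 difference of -0.47 (SE 0.0538, adjusted p = 0.000514) in limma. SRSF8, which arose as a copy of the SRSF2 gene, had 27.6 TPM with ESRP1, 29.5 TPM with ESRP2 and 26 TPM with LPCX in PANC-1 cells, against 20.8, 18.8 and 19.5 TPM with the same constructs in MIA-PaCa2 cells. It was higher in each PANC-1 library than in any MIA-PaCa2 library, by 0.47 (SE 0.0776, adjusted p = 0.00232) on the log2 scale in limma, though reads of these similar genes could have been split between them. With its coding transcript alone the log2 difference was 0.29, also called in limma, and its noncoding transcript is described below. SRSF2, SRSF10 and TRA2A were not called, with differences of -0.15, 0.12 and 0.05. SRSF2 averaged 399 ± 13.3 TPM in PANC-1 and 444 ± 13.5 TPM in MIA-PaCa2 cells without overlap, and its adjusted p in limma was 0.0626.

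Of the hnRNPs 13 of 16 were lower in PANC-1 cells, HNRNPF and HNRNPL were higher, and HNRNPR was not called. HNRNPF and HNRNPH1 are close relatives that bind G-rich sequence, and they differed in opposite directions. HNRNPF had 489 TPM with ESRP1, 484 TPM with ESRP2 and 413 TPM with LPCX in PANC-1 cells, against 266, 235 and 232 TPM with the same constructs in MIA-PaCa2 cells. That is a log2 difference of 0.91 (SE 0.0658, adjusted p = 8.18e-05) in limma, with no overlap. HNRNPH1 had 400.4 TPM with ESRP1, 370.0 TPM with ESRP2 and 397 TPM with LPCX in PANC-1 cells, against 669.6, 783 and 722 TPM with the same constructs in MIA-PaCa2 cells, with every PANC-1 library far below every MIA-PaCa2 library. Its log2 difference in limma was -0.89 (SE 0.0822, adjusted p = 0.000209), and the ratio of the line means was 0.537. The related HNRNPH2 and HNRNPH3 were lower too, with log2 differences of -0.43 and -0.21. In PANC-1 cells HNRNPF thus exceeded HNRNPH1 in each library, and in MIA-PaCa2 cells HNRNPH1 exceeded HNRNPF in each, both on the length-scaled TPM.

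HNRNPA1 had 959.8 TPM with ESRP1, 828 TPM with ESRP2 and 833 TPM with LPCX in PANC-1 cells, against 1399, 1403 and 1454 TPM with the same constructs in MIA-PaCa2 cells. The PANC-1 libraries were all lower, with a log2 difference of -0.70 (SE 0.0783, adjusted p = 0.000449) in limma. A relative of this gene with near-identical sequence, HNRNPA1L2, was listed at 5.78 to 7.21 TPM, and reads could have been split between them. HNRNPD, also known as AUF1 and able to bind AU-rich elements that shorten the life of messages, had 172 TPM with ESRP1, 157 TPM with ESRP2 and 138 TPM with LPCX in PANC-1 cells, against 262, 263 and 264 TPM with the same constructs in MIA-PaCa2 cells. Here too the lines did not overlap, and the log2 difference in limma was -0.76 (SE 0.0782, adjusted p = 0.000332). HNRNPU, a scaffold protein that binds chromatin as well as RNA, averaged 185 ± 18.9 TPM in PANC-1 and 307 ± 21.5 TPM in MIA-PaCa2 cells (SD, n = 3 each) and differed by -0.73 (SE 0.0643, adjusted p = 0.000178) in limma. HNRNPL, which binds CA repeats, averaged 492 ± 12.2 TPM in PANC-1 and 346 ± 7.87 TPM in MIA-PaCa2 cells and was higher in PANC-1 cells by 0.51 (SE 0.0546, adjusted p = 0.000395) in limma.

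U2AF1 and U2AF2 form the dimer that recognises the 3′ splice site, U2AF1 reading the AG and U2AF2 the polypyrimidine tract, and they differed in opposite directions. U2AF1 had 159 TPM with ESRP1, 155 TPM with ESRP2 and 142 TPM with LPCX in PANC-1 cells, against 318, 347 and 321 TPM with the same constructs in MIA-PaCa2 cells. Every PANC-1 library was below the lowest MIA-PaCa2 library, and the log2 difference of -1.11 (SE 0.0624, adjusted p = 3.38e-05) in limma was the lowest of the 42 genes. A near-identical copy, U2AF1L5, was listed at 3.05 to 10.8 TPM, and reads could have been split between them. For U2AF2 the values were 322 TPM with ESRP1, 323 TPM with ESRP2 and 278 TPM with LPCX in PANC-1 cells, against 197, 199.7 and 186 TPM with the same constructs in MIA-PaCa2 cells. All 3 PANC-1 libraries were higher, by 0.66 (SE 0.0583, adjusted p = 0.000181) on the log2 scale in limma. On the length-scaled TPM, U2AF2 exceeded U2AF1 in every PANC-1 library, and U2AF1 exceeded U2AF2 in every MIA-PaCa2 library. SF1, which holds the branch point before the U2 snRNP arrives, had 243 TPM with ESRP1, 229 TPM with ESRP2 and 203 TPM with LPCX in PANC-1 cells, against 207, 196 and 198 TPM with the same constructs in MIA-PaCa2 cells. The lines overlapped, and its log2 difference of 0.16 (SE 0.065, adjusted p = 0.061) in limma was not called. Without either LPCX library it was called at 0.23. SF3B1, a U2 snRNP subunit, RBM10 and RBM39 were lower in PANC-1 cells, with log2 differences of -0.22, -0.57 and -0.46, and RBM5 at -0.11 was not called.

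Of the 6 kinases 4 were lower in PANC-1 cells, CLK3 was higher and CLK4 was not called. CLK1, a nuclear kinase of SR proteins, had 30.1 TPM with ESRP1, 28.2 TPM with ESRP2 and 31.8 TPM with LPCX in PANC-1 cells, against 58, 56.1 and 58 TPM with the same constructs in MIA-PaCa2 cells. The ratio of the line means was 0.524, and the log2 difference in limma was -0.91 (SE 0.0607, adjusted p = 6.11e-05). CLK2, SRPK1 and SRPK2 were lower too, with log2 differences of -0.47, -0.54 and -0.27. CLK3 had 40.4 TPM with ESRP1, 37.8 TPM with ESRP2 and 37.4 TPM with LPCX in PANC-1 cells, against 31.5, 28.2 and 29.5 TPM with the same constructs in MIA-PaCa2 cells, higher in each PANC-1 library, with a log2 difference of 0.36 (SE 0.0601, adjusted p = 0.00234) in limma.

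Other genes of the splicing machinery were counted in the same fit, from lists chosen with earlier results of these data known. Of 20 further hnRNPs and SR-related proteins 2 were higher and 12 lower in PANC-1 cells, with a median log2 difference of -0.33. The highest was TAF15, an RNA-binding protein, which averaged 246 ± 29.8 TPM in PANC-1 and 179.5 ± 6.07 TPM in MIA-PaCa2 cells. Of 32 core spliceosome proteins 5 were higher and 19 lower, with a median of -0.20. SF3B3, a partner of SF3B1 in the U2 snRNP, was the lowest of these at 42.7 ± 3.28 TPM in PANC-1 and 136 ± 7.3 TPM in MIA-PaCa2 cells, and SF3B2, of the same complex, the highest at 260.2 ± 19.1 TPM in PANC-1 and 169 ± 7.55 TPM in MIA-PaCa2 cells. Of 12 other splicing kinases and phosphatases 3 were higher and 5 lower, with a median of -0.04, and of 15 nonsense-mediated decay factors 5 were higher and 6 lower, also with a median of -0.04. DYRK1B, a kinase, averaged 63.9 ± 2.5 TPM in PANC-1 and 2.65 ± 0.662 TPM in MIA-PaCa2 cells and had the largest difference on these 4 lists. The genes named here had the lowest or the highest difference of a list.

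Against these differences between lines, the ESRP constructs went with small ones. Within a line, 0 of the 42 genes reached a 1.5-fold difference between ESRP and LPCX libraries, in any of the 4 comparisons. Over all genes with at least 5 TPM in either library, 3.24% reached it for ESRP1 and 4.39% for ESRP2 in PANC-1 cells, and 2.92% and 3.98% in MIA-PaCa2 cells. Over both lines limma called 0 of 42 genes for ESRP1 (1 at an unadjusted p under 0.05) and 0 of 42 for ESRP2 (5 at an unadjusted p under 0.05). It called 0.00845% of all genes for ESRP1 and 0.0169% for ESRP2. At an unadjusted p under 0.05 there were 820 of all 11829 genes for ESRP1 and 1634 for ESRP2. Both contrasts use the same LPCX libraries, and with 1 library per line and construct the fit has 2 residual degrees of freedom.

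**Figure D3:**
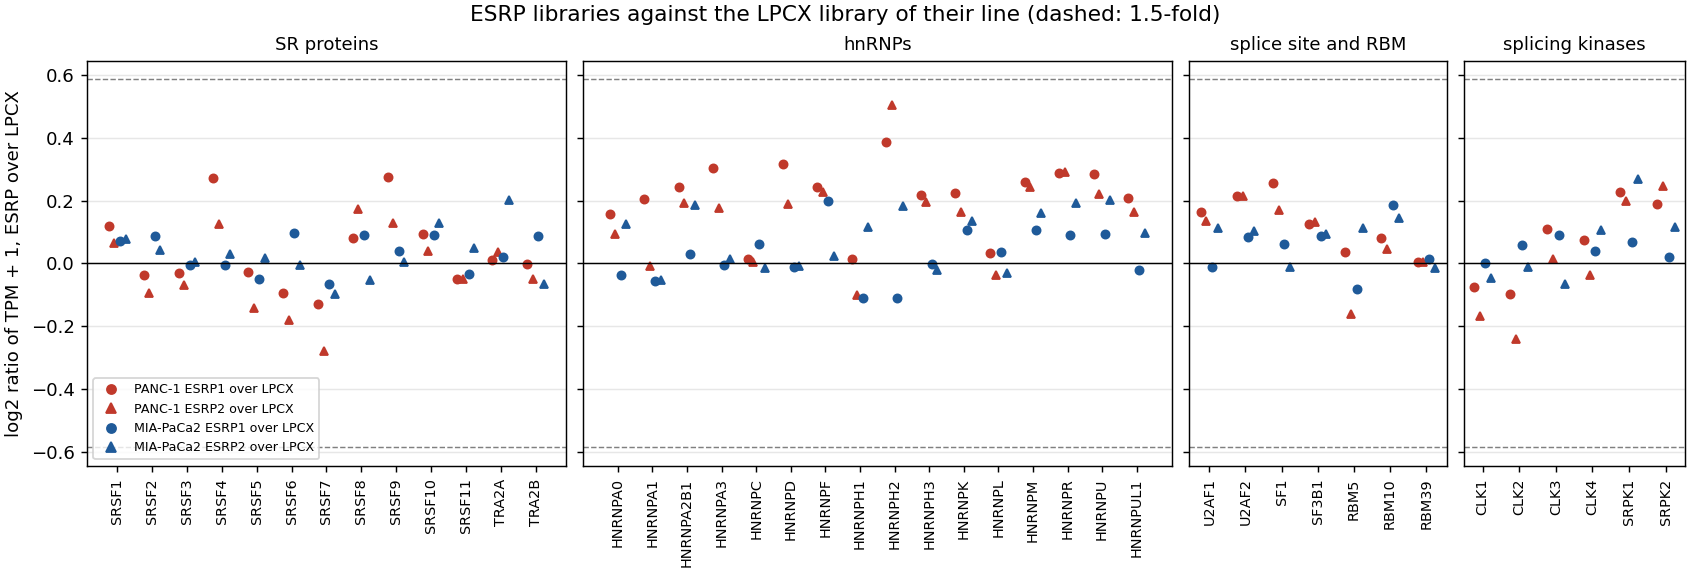
Log2 ratio of TPM plus 1 of each ESRP library over the LPCX library of its line, for 42 genes in 4 groups. Dashed lines mark 1.5-fold, which no gene reached, and the highest point is HNRNPH2 in PANC-1 ESRP2 cells at 0.50.

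HNRNPH2 had the highest ratio of the 42 in PANC-1 cells with both constructs. Its levels were 105 TPM with ESRP1, 114 TPM with ESRP2 and 80.3 TPM with LPCX in PANC-1 cells, against 122, 149 and 131 TPM with the same constructs in MIA-PaCa2 cells. Both PANC-1 ESRP libraries were above LPCX, by 0.39 and 0.50 on the log2 scale for ESRP1 and ESRP2, while in MIA-PaCa2 cells the differences were -0.11 and 0.18. For ESRP2 its change over both lines in limma was 0.34 (SE 0.126, adjusted p = 0.348). HNRNPF was the gene with an unadjusted p under 0.05 for ESRP1, at 0.22 (SE 0.0805, adjusted p = 0.658 in limma), with ratios of 0.24 in PANC-1 and 0.20 in MIA-PaCa2 cells. For ESRP2 the other 4 were HNRNPM at 0.20, HNRNPR at 0.24, HNRNPU at 0.21 and SRPK1 at 0.23, with adjusted p-values in limma between 0.332 and 0.348. Each of these 4 was above LPCX in both lines. Agreement between the lines also lowers the p-value in this fit, so it is not separate support.

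In PANC-1 ESRP1 cells HNRNPD (0.32) and HNRNPA3 (0.30), an RNA-binding relative of HNRNPA1, followed HNRNPH2 among the highest log2 ratios. The lowest were SRSF7 (-0.13), CLK2 (-0.10) and SRSF6 (-0.09). In PANC-1 ESRP2 cells the next highest were HNRNPR (0.29) and SRPK2 (0.25), and the lowest were again SRSF7 (-0.28), CLK2 (-0.24) and SRSF6 (-0.18), against the same LPCX library. SRSF7, an SR protein that also takes part in messenger RNA export, had 142 TPM with ESRP1, 128 TPM with ESRP2 and 155 TPM with LPCX in PANC-1 cells, against 163, 159.7 and 171 TPM with the same constructs in MIA-PaCa2 cells. It was below LPCX in all 4 comparisons, with log2 ratios no lower than -0.28, and its adjusted p in limma was 0.706 for ESRP1 and 0.362 for ESRP2.

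With ESRP1 in MIA-PaCa2 cells the highest ratios were HNRNPF (0.20), RBM10 (0.19), a regulator of cassette exons, and HNRNPK (0.11), which binds C-rich sequence. The lowest were HNRNPH2 (-0.11), HNRNPH1 (-0.11) and RBM5 (-0.08). With ESRP2 the highest were SRPK1 (0.27), TRA2A (0.20) and HNRNPU (0.20), and the lowest SRSF7 (-0.10), TRA2B (-0.07) and CLK3 (-0.07). SRPK1, the kinase that brings SR proteins into the nucleus, had 80.8 TPM with ESRP1, 79 TPM with ESRP2 and 68.8 TPM with LPCX in PANC-1 cells, against 107, 124 and 102 TPM with the same constructs in MIA-PaCa2 cells, and both ESRP libraries of each line were above LPCX.

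The groups of genes can be set beside all genes by their medians. In PANC-1 cells all 16 hnRNPs were above LPCX with ESRP1 (median log2 ratio 0.23) and 13 of 16 with ESRP2 (0.18). In MIA-PaCa2 cells it was 8 of 16 (0.01) and 11 of 16 (0.11). The same counts for the 13 SR proteins were 6 and 6 in PANC-1 cells, with medians of -0.0018 and -0.05, and 8 and 9 in MIA-PaCa2 cells, with medians of 0.04 and 0.02. Over all genes, 68.8% and 67.2% were above LPCX in PANC-1 cells (medians 0.09 and 0.10) and 61.7% and 60.2% in MIA-PaCa2 cells (0.04 and 0.05). After median ratio scaling, which brings the medians over all genes to at most 0.02, 13 and 12 of the 16 hnRNPs were above LPCX in PANC-1 cells (0.16 and 0.11) and 7 and 9 in MIA-PaCa2 cells (-0.02 and 0.06). The SR proteins were then above LPCX in 5 and 3 of 13 (medians -0.07 and -0.13) and in 7 and 4 of 13 (0.0042 and -0.03). In MIA-PaCa2 cells the sign of the median thus turned with the scaling for the hnRNPs with ESRP1 and for the SR proteins with ESRP2. Of the 7 splice site and RBM proteins 7 and 6 were above LPCX in PANC-1 and 5 and 5 in MIA-PaCa2 cells, and of the 6 kinases 4 and 3, and 6 and 3. The same counts after the scaling were 5 and 4, and 4 and 5, of the 7 splice site and RBM proteins, and 4 and 2, and 4 and 3, of the 6 kinases. On the other lists, SMG1, a kinase of the nonsense-mediated decay pathway, was the 1 gene of at least 5 TPM in either library past 1.5-fold, at a log2 ratio of 0.61 in MIA-PaCa2 ESRP2 cells, and near-identical pseudogene copies can share its reads. Below that level SRPK3, a kinase related to SRPK1, had 1.80 TPM with ESRP2 and 3.53 TPM with LPCX in PANC-1 cells, a log2 ratio of -0.69.

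Transcript shares, the part of a gene's TPM that each of its RefSeq transcripts takes, were tested as log2 odds for 97 transcripts of 38 genes. Between the lines limma called 23 of the 97, in 14 genes (HNRNPA2B1, HNRNPC, HNRNPD, HNRNPF, HNRNPU, HNRNPUL1, RBM10, SRPK1, SRSF1, SRSF2, SRSF6, SRSF7, SRSF8 and SRSF10), against 17.3% of all 12965 transcripts. The adjusted p-values of these lay between 0.0197 and 0.0482, and 0 of the 97 were called without any 1 of the 6 libraries, which leaves 1 residual degree of freedom. With a pseudocount of 0.1 TPM 11 were called, and without construct as a term 37. Transcript shares are the quantifier's split of reads among transcripts that overlap, with no look at junction reads here.

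In percentage points SRSF2 had the largest difference. Its transcript NM_001195427 took 60.3% with ESRP1, 66.8% with ESRP2 and 53.2% with LPCX in PANC-1 cells, against 81, 79.4 and 78.9% with the same constructs in MIA-PaCa2 cells. All PANC-1 libraries were lower and varied more, and the log2 odds differed by -1.38 (SE 0.222, adjusted p = 0.0231) in limma. HNRNPUL1, a relative of HNRNPU, had 47.7 ± 2.96% in PANC-1 and 64.5 ± 2.2% in MIA-PaCa2 cells of its TPM in NM_007040 and 32.1 ± 1.56% in PANC-1 and 16.4 ± 1.04% in MIA-PaCa2 cells in NM_001321208 (SD, n = 3 each), and both were called. For SRSF10, an SR protein that acts as a repressor once dephosphorylated, NM_054016 took 34.9% with ESRP1, 36.1% with ESRP2 and 35.9% with LPCX in PANC-1 cells, against 51.8, 52.3 and 52.8% with the same constructs in MIA-PaCa2 cells. The lines did not overlap, and the log2 odds differed by -0.97 (SE 0.161, adjusted p = 0.0245) in limma. HNRNPF, whose total was higher in PANC-1 cells, had 19.8 ± 1.22% in PANC-1 and 33.9 ± 1.89% in MIA-PaCa2 cells in NM_001098206. SF1 had 35.3 ± 3.45% in PANC-1 and 49.6 ± 5.43% in MIA-PaCa2 cells in NM_201998, with an adjusted p in limma of 0.0641, which is not a call.

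For some of these genes the transcripts differ by the segments shown above, and their inclusion, the TPM of transcripts with a segment as a percentage of those with and without it, is given as a description with no test of its own. HNRNPD transcripts with the 147-base exon made up 58.2% with ESRP1, 56.7% with ESRP2 and 56.5% with LPCX in PANC-1 cells, against 46.9, 40.0 and 41.2% with the same constructs in MIA-PaCa2 cells. The PANC-1 libraries were all higher. NM_031370, which holds the exon, differed by 0.81 (SE 0.164, adjusted p = 0.0361) in log2 odds, and NM_002138, which lacks it, by -0.93 (SE 0.162, adjusted p = 0.0263), both called by limma. HNRNPU transcripts with the 57 added bases (NM_031844) made up 32.4% with ESRP1, 29.8% with ESRP2 and 31.4% with LPCX in PANC-1 cells, against 21.8, 20.1 and 20.2% with the same constructs in MIA-PaCa2 cells, and this share was called higher in PANC-1 cells with a difference in log2 odds of 0.79 (SE 0.174, adjusted p = 0.0422) in limma.

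For HNRNPA2B1, B1 transcripts with the 36-base exon made up 17.7% with ESRP1, 16.8% with ESRP2 and 17.4% with LPCX in PANC-1 cells, against 27.5, 26.8 and 24.3% with the same constructs in MIA-PaCa2 cells. The lines did not overlap, and the A2 transcript NM_002137 was called higher in PANC-1 cells, by 0.76 (SE 0.177, adjusted p = 0.0479) in log2 odds in limma. The B1 transcript NM_031243 holds the rest of the gene's TPM and differed by the same amount the other way, -0.76 (SE 0.189, adjusted p = 0.0546) in limma, which is not a call. U2AF1 exon b, set against exon a, was included in 36.8% with ESRP1, 37.9% with ESRP2 and 38.7% with LPCX in PANC-1 cells, against 28.4, 25.8 and 26.4% with the same constructs in MIA-PaCa2 cells. Exon a had the larger part in every library, but exon b had a larger share in each PANC-1 library than in any MIA-PaCa2 library. The exon b transcript NM_001025203 missed the threshold, with a difference in log2 odds of 0.72 (SE 0.174, adjusted p = 0.0509) in limma. In HNRNPC, 39 bases added by a splice donor were included in 49.7% with ESRP1, 53.9% with ESRP2 and 52% with LPCX in PANC-1 cells, against 53.9, 52.6 and 55.9% with the same constructs in MIA-PaCa2 cells, and the lines overlapped. The called transcript of this gene, NM_001077442, averaged 9.21 ± 3.05% in PANC-1 and 25.1 ± 4.79% in MIA-PaCa2 cells, a difference in log2 odds of -1.76 (SE 0.404, adjusted p = 0.0461) in limma. It holds the added bases, and so does NM_031314, which averaged 42.7 ± 1.6% in PANC-1 and 29.1 ± 5.19% in MIA-PaCa2 cells.

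Coding segments of RBM10 and SRSF7 also separated the lines. RBM10 transcripts with a cassette exon of 231 bases at chrX:47171028-47171258 on the plus strand made up 68.4% with ESRP1, 60.3% with ESRP2 and 67.5% with LPCX in PANC-1 cells, against 71.6, 75.1 and 82% with the same constructs in MIA-PaCa2 cells. All PANC-1 libraries were lower. NM_005676, which holds the exon, averaged 15.4 ± 2.2% in PANC-1 and 26.5 ± 3.18% in MIA-PaCa2 cells of the gene's TPM and was called lower, with a difference in log2 odds of -0.95 (SE 0.206, adjusted p = 0.0415) in limma. SRSF7 transcripts with 36 bases at chr2:38746144-38746179 on the minus strand made up 92% with ESRP1, 94.7% with ESRP2 and 93.5% with LPCX in PANC-1 cells, against 87.5, 88.3 and 81.9% with the same constructs in MIA-PaCa2 cells. The PANC-1 libraries were all higher, and NM_001031684, which holds these bases, differed by 1.16 (SE 0.248, adjusted p = 0.04) in log2 odds in limma. The transcript without them, NM_001195446, differed by -1.16 (SE 0.308, adjusted p = 0.0627) in limma and was not called. With a pseudocount of 0.1 TPM neither NM_005676 nor NM_001031684 was called.

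**Figure D4:**
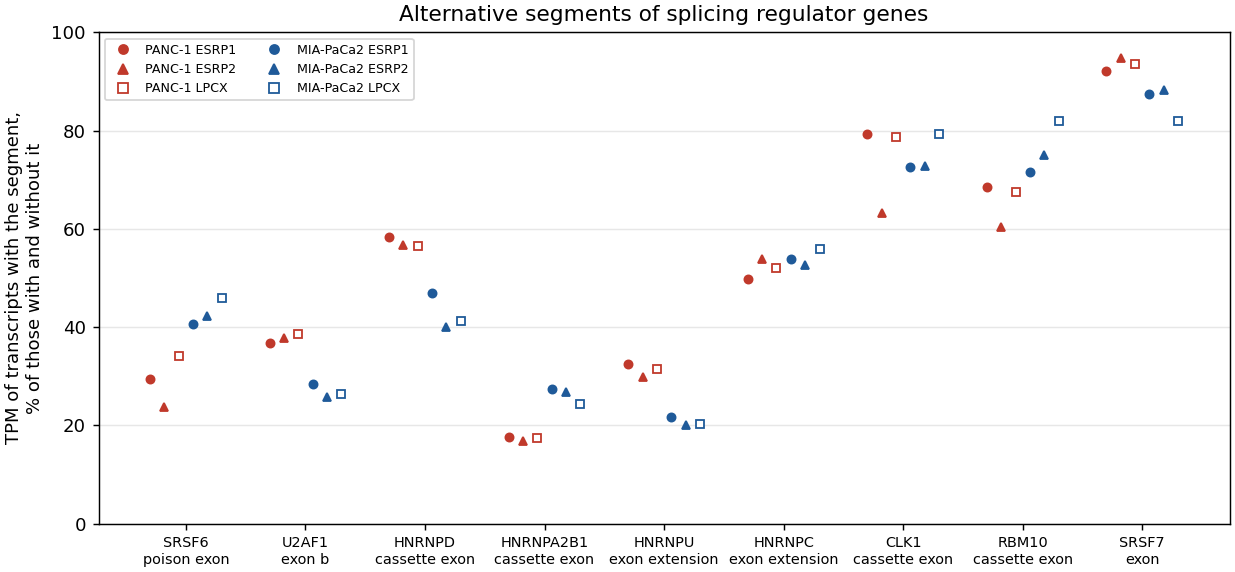
Inclusion of 9 alternative segments in the 6 libraries, as the TPM of transcripts with the segment in percent of those with and without it, 1 point per library. The lines separate for SRSF6, U2AF1, HNRNPD, HNRNPA2B1, HNRNPU, RBM10 and SRSF7, and overlap for HNRNPC and CLK1. They also overlap for the SRSF3 poison exon and for a 12-base extension in U2AF2, which are not drawn. The U2AF2 extension lay between 15.6 and 16.9% in PANC-1 and between 15.6 and 18.8% in MIA-PaCa2 cells. The segments were chosen after their values were seen, and how often segments of other genes separate the lines was not counted.

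With the ESRP constructs limma called 0 of 97 transcripts for ESRP1 and 0 of 97 for ESRP2, with 3 at an unadjusted p under 0.05 in each. Over all transcripts 0.00771% were called for ESRP1 and 0% for ESRP2, and 740 and 824 of the 12965 had an unadjusted p under 0.05. Within a line, shares differed from LPCX by at least 10 percentage points in 3 of the 97 transcripts in PANC-1 ESRP1 cells and in 10 of them in PANC-1 ESRP2 cells, and in 3 and 2 in MIA-PaCa2 cells. Among all transcripts 10.8% and 12.1% did so in PANC-1 cells, and 12.9% and 14.7% in MIA-PaCa2 cells. In 0 of the 97 was there a difference of 10 points with 1 sign in both lines, against 1.82% of all transcripts for ESRP1 and 2.4% for ESRP2. The genes concerned were CLK3 and HNRNPD in PANC-1 ESRP1, CLK1, CLK2, HNRNPA3, SRSF2 and SRSF6 in PANC-1 ESRP2, HNRNPC, HNRNPD and SF1 in MIA-PaCa2 ESRP1, and CLK2 and HNRNPC in MIA-PaCa2 ESRP2 cells. In 4 of the 97 both ESRP libraries of a line were at least 3 points to one side of LPCX and both of the other line at least 3 points to the other side, against 4.29% of all transcripts.

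HNRNPD came closest to a shared difference. Its transcript NM_002138 took 27.6% with ESRP1, 36.8% with ESRP2 and 36.2% with LPCX in PANC-1 cells, against 42.5, 52.1 and 52.6% with the same constructs in MIA-PaCa2 cells. With ESRP1 it was lower than with LPCX by 8.58 points in PANC-1 and by 10.1 points in MIA-PaCa2 cells, while the ESRP2 libraries lay within 1 point of LPCX. Over both lines the ESRP1 difference in log2 odds was -0.58 (SE 0.199, adjusted p = 0.841 in limma). The CLK3 transcript NM_003992 took 71.7% with ESRP1, 66.7% with ESRP2 and 61.5% with LPCX in PANC-1 cells, against 67.5, 68.3 and 62% with the same constructs in MIA-PaCa2 cells. Each ESRP library was above the LPCX library of its line, by 5.16 to 10.2 points, and both constructs of a line share that LPCX library. The adjusted p of this CLK3 transcript in limma was 0.880 for ESRP1 and 0.831 for ESRP2. For SRSF2 the share of NM_001195427 given above was 13.7 points higher with ESRP2 than with LPCX in PANC-1 cells and 0.504 points higher in MIA-PaCa2 cells.

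The CLK1 gene had its widest differences in PANC-1 ESRP2 cells. Leaving out the 91-base exon is known to remove the kinase domain from the protein. Transcripts with the exon made up 79.2% with ESRP1, 63.3% with ESRP2 and 78.7% with LPCX in PANC-1 cells, against 72.6, 72.8 and 79.2% with the same constructs in MIA-PaCa2 cells, so PANC-1 ESRP2 stood apart from the other 5 libraries. Its transcript without the exon, NR_027855, took 13.2% with ESRP1, 29.2% with ESRP2 and 12.9% with LPCX in PANC-1 cells, against 18.9, 18 and 13.6% with the same constructs in MIA-PaCa2 cells. The intron-retaining transcript NR_027856, which is not part of the inclusion value and leaves it resting on at least 60.4% of the gene's TPM, took 36.7% with ESRP1, 20.5% with ESRP2 and 39.6% with LPCX in PANC-1 cells, against 31, 33.7 and 34.4% with the same constructs in MIA-PaCa2 cells. PANC-1 ESRP2 was the highest library for the first and the lowest for the other, at a CLK1 level of 28.2 TPM.

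Transcripts without a coding sequence (NR accessions) were present for 12 of the 43 genes, and all 12 passed the filter of at least 2% in a library. The highest shares on average over the 6 libraries were those of CLK1, HNRNPA1, SRSF6, RBM39, RBM5 and SRSF10. Between the lines limma called 5 of the 12, against 20.3% of 1188 genes. SRSF1, SRSF2, SRSF8 and SRPK1 were higher in PANC-1 cells and SRSF6 was lower, where 13.2% of the 1188 were higher and 7.07% lower. The calls ended in all 5 without either ESRP2 library. Without either LPCX library 2 were left, without either ESRP1 library 4, and with a pseudocount of 0.1 TPM 3.

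For SRSF6 the NR transcript is the one with the poison exon shown above. It took 29.4% with ESRP1, 23.8% with ESRP2 and 34.2% with LPCX in PANC-1 cells, against 40.6, 42.4 and 45.9% with the same constructs in MIA-PaCa2 cells. All PANC-1 libraries were lower, and the log2 odds differed by -0.87 (SE 0.22, adjusted p = 0.0272) in limma. The coding transcript stood at 76.6, 77.9 and 76.2 TPM in PANC-1 cells with ESRP1, ESRP2 and LPCX, against 83.0, 75.0 and 70.7 TPM with the same constructs in MIA-PaCa2 cells, and the lines overlapped. The noncoding one had 31.9, 24.3 and 39.6 TPM in PANC-1 cells, against 56.7, 55.1 and 59.98 TPM in MIA-PaCa2 cells, with no overlap. The lower SRSF6 total of PANC-1 cells, -0.29 (SE 0.0642, adjusted p = 0.00743) in limma, went with a difference in the noncoding transcript. The poison exon of SRSF3 took 8.82% with ESRP1, 6.98% with ESRP2 and 8.01% with LPCX in PANC-1 cells, against 7.74, 8.55 and 8.14% with the same constructs in MIA-PaCa2 cells, the lines overlapped, and the log2 odds differed by -0.04 (SE 0.26, adjusted p = 0.938) in limma.

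SRSF1, SRSF2, SRSF8 and SRPK1 went the other way. The SRSF2 noncoding transcript took 10.0% with ESRP1, 8.7% with ESRP2 and 10.9% with LPCX in PANC-1 cells, against 3.57, 3.37 and 3.68% with the same constructs in MIA-PaCa2 cells. The lines did not overlap, and the log2 odds differed by 1.54 (SE 0.264, adjusted p = 0.00703) in limma. In SRSF8 it took 17.9% with ESRP1, 15.2% with ESRP2 and 17% with LPCX in PANC-1 cells, against 3.25, 5.41 and 6.63% with the same constructs in MIA-PaCa2 cells, a difference of 1.497 (SE 0.272, adjusted p = 0.00846) in limma. These SRSF8 shares rest on 4.95, 4.47 and 4.43 TPM in PANC-1 cells. In MIA-PaCa2 cells they rest on 0.678, 1.02 and 1.29 TPM, near the pseudocount of 0.5 TPM. SRSF1 averaged 8.56 ± 2.6% in PANC-1 and 3.31 ± 0.989% in MIA-PaCa2 cells and SRPK1 11 ± 0.845% in PANC-1 and 5.43 ± 1.17% in MIA-PaCa2 cells (SD, n = 3 each), with differences of 1.41 (SE 0.275, adjusted p = 0.0112) and 1.08 (SE 0.257, adjusted p = 0.022) in limma. In the fit of transcript shares the same SRPK1 transcript, NR_034069, had an adjusted p of 0.0669 in limma. The SRSF1 one, NR_034041, had 0.0635 in that limma fit, and neither of them was called there. CLK1, with 50.6 ± 1.55% in PANC-1 and 49.9 ± 1.86% in MIA-PaCa2 cells, had close to equal coding and noncoding parts in both lines. HNRNPA1 averaged 42.7 ± 4.49% in PANC-1 and 38.6 ± 0.982% in MIA-PaCa2 cells, RBM39 33.8 ± 4.44% in PANC-1 and 32.4 ± 0.504% in MIA-PaCa2 cells, RBM5 17.3 ± 3.96% in PANC-1 and 17.3 ± 5.79% in MIA-PaCa2 cells and SRSF10 13 ± 3.29% in PANC-1 and 10.2 ± 1.12% in MIA-PaCa2 cells, and CLK1 and these 4 were not called.

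**Figure D5:**
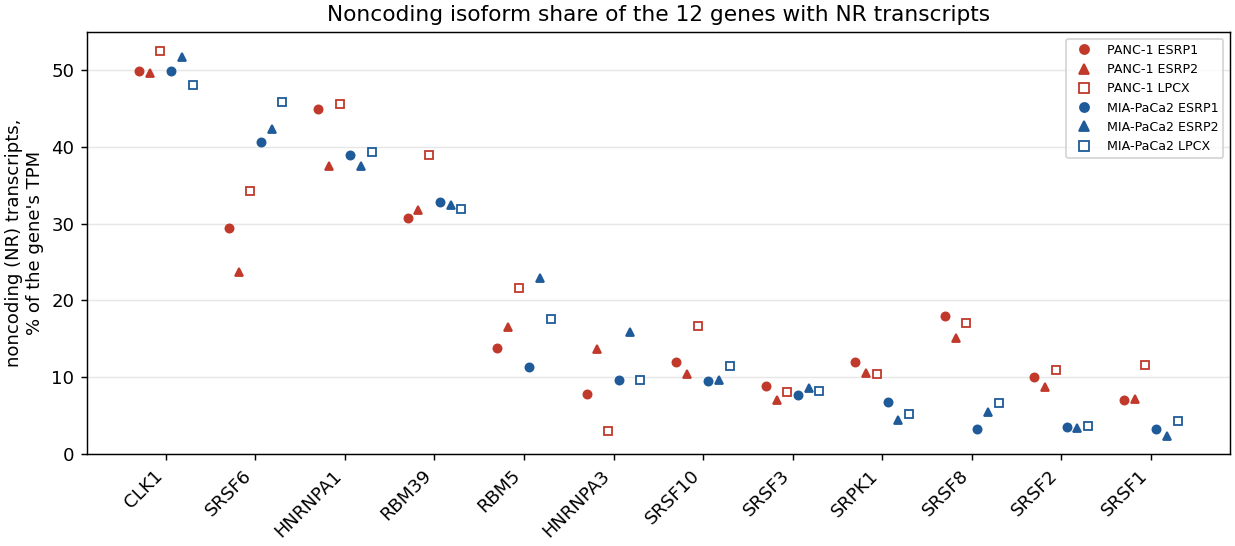
Noncoding (NR) transcripts in percent of the gene's TPM for the 12 genes that have them, 1 point per library. SRSF6 is lower in the 3 PANC-1 libraries, and SRSF1, SRSF2, SRSF8 and SRPK1 are higher in them.

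With the ESRP constructs limma called 0 of 12 noncoding shares for ESRP1 (0 at an unadjusted p under 0.05) and 0 of 12 for ESRP2 (2 at an unadjusted p under 0.05), and 0% of the 1188 genes for either, with 58 and 73 at an unadjusted p under 0.05. The share was lower than with LPCX in 8 of 12 genes with ESRP1 and 10 of 12 with ESRP2 in PANC-1 cells, and in 9 and 7 of 12 in MIA-PaCa2 cells. Over the 1188 genes it was lower in 57.9% and 61.9% in PANC-1 cells, and in 55.6% and 51.2% in MIA-PaCa2 cells. Noncoding transcripts as a whole took 9.82% of the TPM with ESRP1, 10.1% with ESRP2 and 12.97% with LPCX in PANC-1 cells, against 9.39%, 12.1% and 11.1% with the same constructs in MIA-PaCa2 cells. The entries MIR4461 and MIR6723 alone made up 4.66%, 5.20% and 7.002% in PANC-1 cells, against 4.605%, 6.28% and 5.60% in MIA-PaCa2 cells. All other noncoding transcripts took 5.16%, 4.91% and 5.97% in PANC-1 cells, against 4.79%, 5.84% and 5.53% in MIA-PaCa2 cells. The part of this library-wide share in the gene values was not tested.

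The differences from LPCX were widest in 5 genes. The SRSF6 share was lower in all 4 ESRP libraries, by 4.78 and 10.4 points with ESRP1 and ESRP2 in PANC-1 cells and by 5.32 and 3.54 points in MIA-PaCa2 cells, but its adjusted p in limma was 0.924 for ESRP1 and 0.795 for ESRP2. HNRNPA3 had 7.76% with ESRP1, 13.7% with ESRP2 and 2.96% with LPCX in PANC-1 cells, against 9.65, 15.9 and 9.68% with the same constructs in MIA-PaCa2 cells. Both ESRP2 libraries were the highest of their line, and the ESRP2 difference in log2 odds was 1.55 (SE 0.42, adjusted p = 0.749 in limma). For RBM39, a splicing cofactor related to U2AF2, the share was 30.8% with ESRP1, 31.8% with ESRP2 and 38.9% with LPCX in PANC-1 cells, against 32.8, 32.4 and 31.8% with the same constructs in MIA-PaCa2 cells. PANC-1 LPCX was the highest of these libraries, and the MIA-PaCa2 libraries lay within about 1 point of each other. In HNRNPA1 the largest difference was in PANC-1 ESRP2 cells, at 37.5% against 45.5% with LPCX. RBM5, a regulator of exons in cell death genes, had 13.8% with ESRP1, 16.5% with ESRP2 and 21.6% with LPCX in PANC-1 cells, against 11.3, 22.9 and 17.6% with the same constructs in MIA-PaCa2 cells, with the ESRP2 library below LPCX in PANC-1 and above it in MIA-PaCa2 cells. SRSF1 was the other gene at an unadjusted p under 0.05 for ESRP2, at -0.80 (SE 0.337, adjusted p = 0.749 in limma).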

How the data were processed

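The 6 libraries were prepared from total RNA with the TruSeq mRNA chemistry, per the labels' protocols. The submitters' processing notes name Salmon and GRCh38 (hg38), with no version. The authors deposited 1 table of TPM for RefSeq transcripts, of which 8664 of 67792 lines repeat another and were dropped. That left 59128 transcripts in 27408 genes and 1000000 TPM per library. Depth is unknown. Columns were matched by line and construct. The ESRP2 column of MIA-PaCa2 is headed ESRP12 and the LPCX column spells the line differently, and both were assigned by elimination. An N or T at the end of the headers has no explanation.

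Gene totals are sums over transcripts of 1 symbol. Levels were tested with limma 3.58.1 (R 4.3.3, with a trend) as log2(TPM + 1), with line and construct as terms. The 11829 genes tested reached 5 TPM in 2 or more libraries. Benjamini-Hochberg adjustment over all features was applied at 0.05. The same model was fitted to log2 odds (pseudocount 0.5 TPM) of transcripts with at least 10% of a gene of at least 5 TPM in every library, and of summed NR transcripts with at least 2% in a library. Within a line, log2 ratios and share differences have no test. The code was checked on made-up input with known changes. For the segments, RefSeq accessions were matched to GENCODE release 29, and some matches are not unique.

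The genes and lists were chosen with earlier results of these data known. Genes described singly are the 3 highest and 3 lowest per ESRP comparison, the 6 highest and 6 lowest between lines, the 8 largest share differences between lines, shares that moved by 10 points in both lines, the 6 highest NR shares, the 4 largest NR differences, genes under 5 TPM and genes with calls. The segments and the remaining genes named were chosen after their values were seen.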

Additional observations from a re-analysis of the deposited data

Results flagged for a closer look

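Transcript shares of 3 genes differed from LPCX in opposite directions in the lines, by at least 3 percentage points in all 4 ESRP libraries. This was so for 4 of the 97 transcripts, against 4.29% of all transcripts, so the share is close to the background. With 1 library for each line and construct the difference between the lines was not tested. Each line's values also share an LPCX library, so the ESRP1 and ESRP2 values of a line are not independent.

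The CLK2 transcript NM_001294338 was 4.19 points above LPCX with ESRP1 and 11.8 points above it with ESRP2 in PANC-1 cells, while its share differed by -6.54 points with ESRP1 and -11.3 points with ESRP2 in MIA-PaCa2 cells. For RBM39 the share of NM_184234 differed from LPCX by 4.47 and 5.62 points with ESRP1 and ESRP2 in PANC-1 cells, and by -6.02 and -8.16 points in MIA-PaCa2 cells. In SF1 the share of NM_004630 differed by -6.12 and -3.40 points with ESRP1 and ESRP2 in PANC-1 cells, and by 8.13 and 5.24 points in MIA-PaCa2 cells. The SF1 transcript NM_201998 went the other way, by 3.77 and 6.89 points in PANC-1 cells and by -10.5 and -3.01 points in MIA-PaCa2 cells.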

How the results depend on the processing

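The count of genes that differed between the lines was stable: 35 of 42, between 33 and 36 under another pseudocount, filter, scaling, no trend, no replicate block or coding transcripts only, and between 30 and 32 without any 1 library. The counts of 0 in both ESRP contrasts, for levels, transcript shares and noncoding shares, were 0 under each alternative run that kept every library. Over all features the main run called 1 and 2 of 11829 genes for ESRP1 and ESRP2. It called 1 and 0 of 12965 transcripts, and 0 and 0 of 1188 noncoding shares. With so few calls over all features, these counts of 0 cannot show that the constructs had no effect. Transcript shares between the lines were not stable: 23 were called, 37 with no replicate block, where construct is left out as a term, 11 with a pseudocount of 0.1 TPM, and between 0 and 0 without any 1 library. Noncoding shares between the lines were called in 5 genes, in 3 with a pseudocount of 0.1 TPM, and in between 0 and 4 without any 1 library. Leaving out a library removes its construct from this contrast and leaves 1 residual degree of freedom. Within a line, 0 genes passed 1.5-fold, and at 1.3-fold it was 1 gene each with ESRP1 and ESRP2 in PANC-1 cells. Genes with a share that differed from LPCX by 10 points numbered 2 and 5 in PANC-1 cells with ESRP1 and ESRP2, and 3 and 2 in MIA-PaCa2 cells. With a step of 5 points they were 9 and 15 in PANC-1 and 13 and 12 in MIA-PaCa2 cells, and with a step of 20 points 0 and 0 in both. Among single genes and transcripts, 216 recomputed values kept their side of the threshold, 178 lost it, 2 gained it and 0 changed direction. Each line and construct has 1 library, so no replicate numbers pair the libraries, and the construct (between lines) or the cell line (for ESRP) served as the replicate block. Depth is unknown, so how far it limits low transcript shares cannot be given.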
